A study of Mus musculus with 6 samples.

Results

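The MYC and MAX network was taken as 8 transcription factor genes, Myc, Max, Mxd1, Mxd3, Mxd4, Mxi1, Mnt and Mga, chosen by symbol from the 17890 genes of the table. All 8 are in the table, and 7 passed the filter on low counts. Gene expression was measured by RNA sequencing in mast cells from mouse lymph nodes, with 3 libraries from uninvolved nodes (uLN) and 3 from nodes holding tumour metastases (mLN). The sources used here do not give the genotype, strain or age of the mice, the tumour, the time of collection or how the mast cells were isolated. Both groups had mRNA libraries made with the same kit, per the labels' protocols. The comparison of mLN with uLN asks how the network differs between mast cells of metastatic and uninvolved nodes.

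MYC binds DNA only as a pair with MAX, at the E-box CACGTG, and raises transcription of genes for ribosome assembly, nucleotide synthesis and cell growth. The MXD proteins, MXI1 and MNT also pair with MAX at E-boxes, but they recruit SIN3 corepressors and so oppose MYC. MGA is a large MAX partner that sits in a repressive polycomb complex. In mast cells, stem cell factor acting on the receptor KIT drives growth, and MYC is a common target of such growth signals.

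E-boxes were looked for in the promoters of the members, because a CACGTG there is the sequence that the network's own dimers bind. The RefSeq promoter windows of GRCm38.p6, 250 bases before to 50 after a transcript start, matched 7 of the 8 members by symbol, all but Myc, with 9 windows between them. CACGTG, which reads alike on both strands, was found in 3 of these 9 windows and in 7.2% of all 32851 windows. Mxi1 alone has 3 of the 9 windows, and the 32851 include genes not tested here. By gene, 3 of the 7 members had it, beside 1172 of the 10180 tested genes with a window. The 3 windows belong to Max, Mxd4 and Mnt, and 260 bases of each, from 250 before the start to 10 after it, are given 5′ to 3′ with the E-box in capitals. The Max sequence lies at chr12:76962239-76962498 on the minus strand, the Mxd4 sequence at chr5:34187701-34187960 on the minus strand and the Mnt sequence at chr11:74830674-74830933 on the plus strand, all in GRCm38.p6.
Max: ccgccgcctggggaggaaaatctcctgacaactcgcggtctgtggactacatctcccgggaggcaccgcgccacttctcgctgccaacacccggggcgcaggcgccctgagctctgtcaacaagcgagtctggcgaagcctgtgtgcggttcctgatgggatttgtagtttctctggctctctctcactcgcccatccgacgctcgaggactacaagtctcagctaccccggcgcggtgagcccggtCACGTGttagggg
Mxd4: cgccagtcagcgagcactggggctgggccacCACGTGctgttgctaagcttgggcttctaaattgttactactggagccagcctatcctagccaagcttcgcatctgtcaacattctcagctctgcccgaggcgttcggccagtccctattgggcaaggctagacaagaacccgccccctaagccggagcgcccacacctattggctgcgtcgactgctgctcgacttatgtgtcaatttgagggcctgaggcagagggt
Mnt: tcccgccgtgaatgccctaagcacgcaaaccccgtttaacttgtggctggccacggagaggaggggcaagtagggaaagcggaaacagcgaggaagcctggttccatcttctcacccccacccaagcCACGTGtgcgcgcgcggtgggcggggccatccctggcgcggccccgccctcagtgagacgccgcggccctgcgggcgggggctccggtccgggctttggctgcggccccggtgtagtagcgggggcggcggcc
The E-box of Max begins 3 bases before the start used for its window and runs across it. That of Mnt begins 123 bases before the start of its window, and that of Mxd4 219 bases before its own. The RefSeq genes of Max and Mnt extend upstream of these window starts, to 76962323 and 74830806, so distances from the gene ends differ. Of these 3 genes, Max and Mxd4 were lower in mLN and Mnt was not called, as given with their values. A match is only a run of letters, and no binding was measured.

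The libraries held between 17643916 and 17799420 estimated counts, and between 15597 and 16182 genes had at least 1 count. Kit, Cpa3 and Fcer1a, which define mast cells, were abundant in both groups, at 7756 ± 191, 14730 ± 400.0 and 3212 ± 98.4 CPM in uLN and 3139 ± 46.6, 10920 ± 799 and 2137 ± 149 in mLN (SD, n = 3). Of the 10 mast cell markers listed, 5 fell, among them these 3, and 3 rose, while Gata2 and Il1rl1 were not called. The mast cell protease genes Tpsb2, Cma1 and Mcpt4, named after their values were seen, were the 3 that rose, by 1.04, 1.01 and 2.01 on the log2 scale. Summed keratinocyte and epithelial markers reached 178 CPM in mLN replicate 1, against 17.5 and 38.5 in the other mLN libraries and 8.91 to 18.9 in uLN. Summed fibroblast markers were 113 CPM in mLN replicate 1 and 5.29 to 26.8 elsewhere. All 8 keratinocyte and 6 fibroblast markers with at least 20 reads were highest in mLN replicate 1, while Epcam had at most 2 reads in any library. Summed melanocyte markers were 5.56 to 8.84 CPM in the other libraries and 16.2 CPM in mLN replicate 1. In that replicate 4 of the 5 melanocyte markers with at least 20 reads were highest. Without that library Myc and Mxd4 were lower in mLN by log2 changes of -1.01 and -0.86. Summed macrophage markers were between 350 and 491 CPM in uLN and between 283 and 320 in mLN, where 7 of 9 tested fell and 2 rose. The part of macrophage transcripts in the results was not tested. Summed B cell markers were at most 0.723 CPM in any library. Values below are TMM-normalised CPM, which are reads scaled to a common library size and composition.

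Across the members, 4 were lower in mLN, 1 was higher and 2 were not called, at a Benjamini-Hochberg adjusted p under 0.05 over the 12706 genes tested with edgeR (quasi-likelihood). Among all tested genes 67.4% were called, 34.2% lower and 33.2% higher, so 5 called members of 7 lie near the background. The groups did not overlap for 4 of the 7 tested members, against 72.9% of all tested genes. Myc and Mxd4 fell by more than 1.5-fold, a size of fall seen in 15.3% of tested genes. The other called members moved less than that. These are bulk libraries, in which fewer cells with a transcript and less of it per cell cannot be told apart.

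Myc, which encodes the growth-promoting factor at the centre of the network, was at 10.6, 10.2 and 10.2 CPM in uLN replicates 1, 2 and 3 and at 5.20, 5.39 and 4.82 CPM in mLN replicates 1, 2 and 3. All 3 mLN libraries lay well below the uLN libraries, and neither group spread widely. The mean fell from 10.3 ± 0.222 to 5.14 ± 0.291 CPM (SD, n = 3), a log2 change of -1.0 ± 0.11 (SE, edgeR adjusted p = 1.87e-05). These levels rest on 541 reads over uLN and 276 over mLN, and counting error alone puts the mLN over uLN ratio between 0.431 and 0.579 (exact binomial 95% interval, which covers counting error only). Of all tested genes, 16.1% had a larger change in either direction. The Myc gene (ID 17869) spans 61985341 to 61990361 of chromosome 15 (GRCm38). Its uLN level was above that of only 31.6% of tested genes, so Myc was a low transcript in these mast cells.

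Max, the shared dimerisation partner of the network, was at 122, 111 and 112 CPM in uLN replicates 1 to 3 and at 88.7, 87.1 and 105 CPM in mLN replicates 1 to 3. The groups did not overlap, and mLN replicate 3 came close to uLN. Max fell from 115 ± 5.98 to 93.6 ± 9.98 CPM (SD, n = 3), a log2 change of -0.30 ± 0.07 (SE, edgeR adjusted p = 0.00436). Max (gene ID 17187) lies on chromosome 12 from 76937269 to 76962323.

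**Figure D1:**
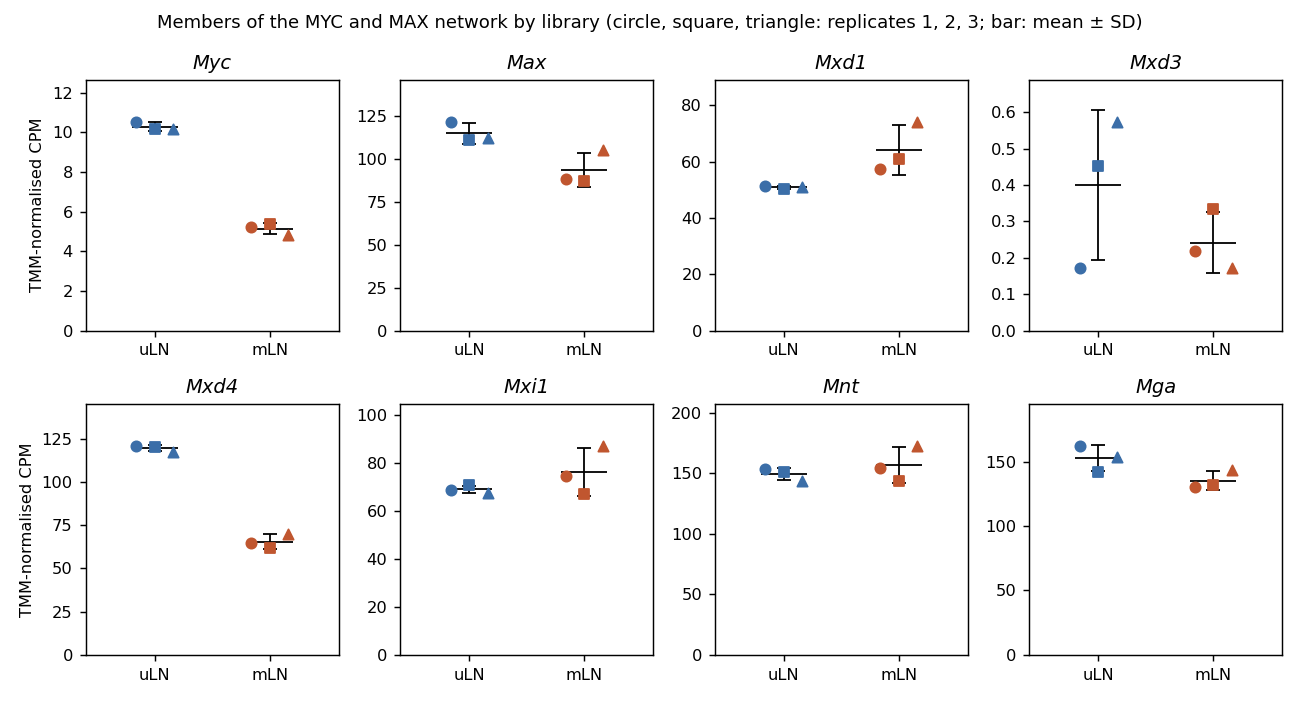
TMM-normalised CPM (vertical axis, from 0) of each member in the 3 uLN and 3 mLN libraries, with the mean and SD of each group. Myc and Mxd4 separate widely, Max and Mxd1 separate narrowly, and the groups of Mxd3, Mxi1, Mnt and Mga overlap.

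The antagonists moved in different directions. Mxd4, a MAX partner that represses transcription and is typical of cells that no longer divide, was at 121, 120 and 118 CPM in uLN replicates 1 to 3 and at 64.9, 61.6 and 70.0 CPM in mLN replicates 1 to 3. The lowest uLN library was far above the highest mLN library. Mxd4 fell from 119 ± 1.70 to 65.5 ± 4.25 CPM (SD, n = 3), a log2 change of -0.87 ± 0.05 (SE, edgeR adjusted p = 3.50e-07). Mxd4 (gene ID 17122) lies on chromosome 5 from 34176580 to 34187710.

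Mxd1, the founding MXD repressor, which is raised when myeloid cells differentiate, was at 51.4, 50.2 and 51.0 CPM in uLN replicates 1 to 3 and at 57.3, 60.9 and 74.2 CPM in mLN replicates 1 to 3. All mLN libraries were above uLN, and mLN replicate 3 was the highest by some distance. Mxd1 rose from 50.9 ± 0.605 to 64.1 ± 8.93 CPM (SD, n = 3), a log2 change of 0.33 ± 0.09 (SE, edgeR adjusted p = 0.00580). Without mLN replicate 3 the rise was 0.22 on the log2 scale and was still called (adjusted p = 0.00101). Mxd1 (gene ID 17119) lies on chromosome 6 from 86647044 to 86669234, and the lncRNA gene Gm38850 overlaps it.

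Mxi1, a close relative of MXD1 that low oxygen is known to induce, was at 68.6, 70.7 and 67.6 CPM in uLN replicates 1 to 3 and at 74.7, 67.2 and 87.2 CPM in mLN replicates 1 to 3. The groups overlapped, since mLN replicate 2 was below every uLN library while mLN replicate 3 was well above them. The log2 change of 0.15 ± 0.08 (SE) was not called (edgeR adjusted p = 0.144). Without mLN replicate 2 it was 0.23 and was called (adjusted p = 0.0182), and without mLN replicate 3 it was 0.044 (adjusted p = 0.457). Mxi1 (gene ID 17859) lies on chromosome 19 from 53310128 to 53373293.

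Mnt, the broadly expressed antagonist that keeps MYC in check in many tissues, was at 154, 151 and 144 CPM in uLN replicates 1 to 3 and at 154, 144 and 173 CPM in mLN replicates 1 to 3. The groups overlapped, and the log2 change of 0.07 ± 0.07 (SE) was not called (edgeR adjusted p = 0.375). Mnt (gene ID 17428) lies on chromosome 11 from 74830806 to 74845725.

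Mxd3, a repressor found mainly in dividing cells, had 3, 8 and 10 reads in uLN replicates 1 to 3 and 4, 6 and 3 reads in mLN replicates 1 to 3. It did not pass the filter and was not tested. Its ratio of mLN to uLN reads was 0.606, with an exact counting interval from 0.279 to 1.27, so no difference was detectable at this depth. Its counts in the table are not whole numbers, and Prelid1, which is far more abundant (139 ± 2.87 CPM in uLN, SD, n = 3), overlaps it on chromosome 13 between 55325170 and 55329900.

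Mga, the MAX partner with a T-box, was at 162, 142 and 154 CPM in uLN replicates 1 to 3 and at 131, 132 and 144 CPM in mLN replicates 1 to 3. The groups overlapped slightly, as mLN replicate 3 was above uLN replicate 2. Mga fell by 0.17 ± 0.06 on the log2 scale (SE, edgeR adjusted p = 0.0246). Leaving out uLN replicate 1, uLN replicate 3, mLN replicate 1 or mLN replicate 2 ended that call, with adjusted p-values of 0.111, 0.0537, 0.0859 and 0.0571 in turn. Mga (gene ID 29808) lies on chromosome 2 from 119872503 to 119970129, holds the pseudogene Gm13998, and also has counts that are not whole.

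**Figure D2:**
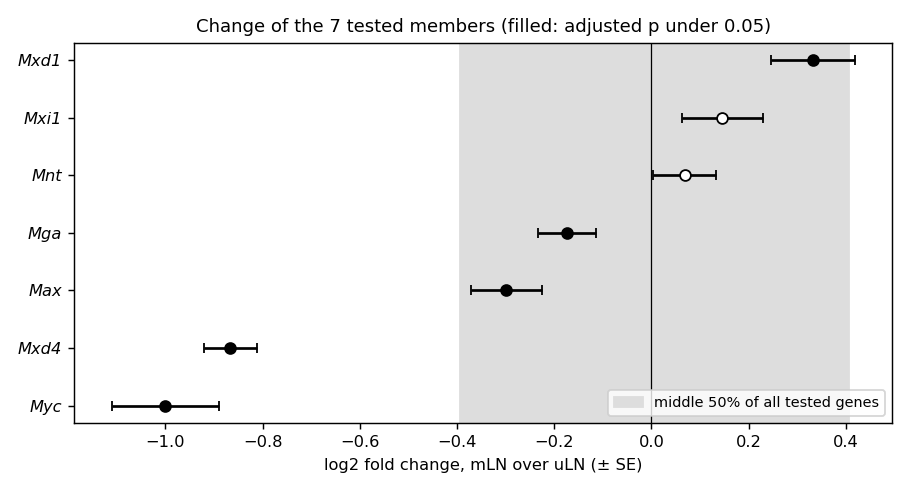
Log2 fold change of mLN over uLN with its SE (horizontal axis) for the 7 tested members, beside the middle 50% of all tested genes in grey. Of the 7, only Myc and Mxd4, at -1.0 and -0.87, lie outside the grey range of -0.39 to 0.41.

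To compare levels between genes, CPM were divided by the exon length of each gene in kilobases. In uLN the order was Max at 58.8 ± 3.06, Mnt at 32.6 ± 1.10, Mxd4 at 30.8 ± 0.437, Mga at 11.0 ± 0.725, Mxd1 at 10.9 ± 0.130, Mxi1 at 10.4 ± 0.238, Myc at 4.21 ± 0.0907 and Mxd3 at 0.301 ± 0.155 CPM per kb (SD, n = 3). The libraries of Mga and Mxd1 overlapped there, and those of the other neighbours did not. In mLN Max was at 47.8 ± 5.10, Mnt at 34.2 ± 3.16, Mxd4 at 16.9 ± 1.10 and Mxd1 at 13.8 ± 1.91 CPM per kb (SD, n = 3). Mxi1 followed at 11.5 ± 1.52, Mga at 9.71 ± 0.516, Myc at 2.10 ± 0.119 and Mxd3 at 0.182 ± 0.0626 CPM per kb (SD, n = 3). In mLN the libraries of Mxd4 and Mxd1, of Mxd1 and Mxi1, and of Mxi1 and Mga overlapped. Within each single mLN library the order was nonetheless Mxd4, Mxd1, Mxi1 and Mga. In both groups Myc was the lowest but for Mxd3, and Max alone was more abundant than any antagonist.

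As a share of the length-scaled level of all 8 members, Mxd4 went from 19.4% ± 0.393 in uLN to 12.4% ± 0.417 in mLN, and Myc from 2.65% ± 0.0228 to 1.56% ± 0.224 (SD, n = 3). The share of Mnt went from 20.5% ± 0.464 to 25.1% ± 0.479 and that of Mxd1 from 6.87% ± 0.157 to 10.1% ± 0.610 (SD, n = 3). The share of Max was 37.0% ± 0.863 and 35.1% ± 0.478 (SD, n = 3). Shares sum to a fixed total, so a fall of some raises the others.

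The ratio of Myc CPM to the summed CPM of the 5 antagonists Mxd1, Mxd3, Mxd4, Mxi1 and Mnt was 0.0267, 0.0259 and 0.0267 in uLN replicates 1 to 3 and 0.0148, 0.0162 and 0.0119 in mLN replicates 1 to 3. Every mLN value was below every uLN value. The mean ratio in mLN was 0.541 of that in uLN, with p = 0.1 in a two-sided exact permutation test, the smallest p that 3 against 3 libraries allow. The ratio of Myc to Max went from 0.0895 ± 0.00267 to 0.0555 ± 0.00848 (SD, n = 3), or 0.620 of uLN, again with an exact permutation p = 0.1. The summed CPM of the 5 antagonists overlapped between the groups, at 389 ± 7.53 in uLN and 363 ± 36.6 in mLN (SD, n = 3).

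Mycn, the Myc paralog best known from embryonic and neural tissue, took the opposite course to Myc. It had 11, 16 and 4 reads in uLN replicates 1 to 3 and 156, 172 and 198 in mLN replicates 1 to 3. Mycn rose from 0.588 ± 0.339 to 9.83 ± 1.43 CPM (SD, n = 3), which is 16.5-fold or a log2 change of 4.04 ± 0.30 (SE, edgeR adjusted p = 9.64e-07). The size rests on few uLN reads, and it ranged from 3.66 to 4.49 on the log2 scale when a library was left out. It was 4.13 without mLN replicate 1, the library with the most keratinocyte and fibroblast transcripts. Mycn (gene ID 18109) lies on chromosome 12 from 12936093 to 12941836, with no overlapping gene in RefSeq.

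Per kilobase, Mycn was above Myc in every mLN library and below it in every uLN library, a comparison made after the Mycn values were seen. Mycn made up 4.96%, 7.20% and 1.93% of the length-scaled sum of Myc and Mycn in uLN replicates 1 to 3, and 58.9%, 60.7% and 67.3% in mLN replicates 1 to 3. The sum itself was 4.42 ± 0.157 CPM per kb in uLN and 5.60 ± 0.426 in mLN (SD, n = 3). With Mycn counted beside Myc, the ratio to the 5 antagonists was 1.48 times as high in mLN as in uLN (exact permutation p = 0.1), the reverse of Myc alone. Mycl, the third MYC gene, had 3 reads over uLN and 10 over mLN and was not tested.

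**Figure D3:**
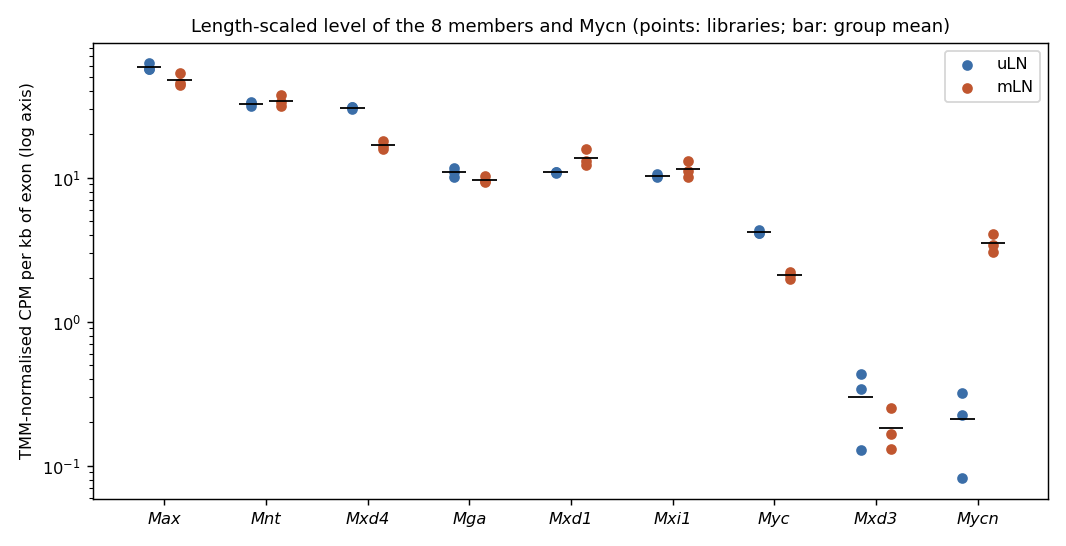
TMM-normalised CPM per kilobase of exon (log axis) for the 8 members and Mycn, with each library as a point and group means as bars. Max is the highest in both groups, Mxd4 and Myc are lower in mLN, and Mycn goes from 0.210 to 3.50 CPM per kb.

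The MLX arm runs parallel to the MAX network, with MLX in the place of MAX and the glucose-responsive factors MLXIP and MLXIPL as its activators. Mlx fell from 33.6 ± 1.501 to 22.7 ± 0.736 CPM (SD, n = 3), a log2 change of -0.57 ± 0.07 (SE, edgeR adjusted p = 2.53e-05). Mlxip rose from 162 ± 2.76 to 361 ± 22.0 CPM (SD, n = 3), a log2 change of 1.15 ± 0.05 (SE, edgeR adjusted p = 3.66e-08). Mlxipl had 6 reads over uLN and 4 over mLN and was not tested. Psmc3ip overlaps Mlx.

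Genes that MYC is widely described to induce were more often lower than higher in mLN. Of 71 tested members of a list of 72, 44 fell (62.0%), 10 rose (14.1%) and 17 were not called, where 34.2% and 33.2% of all tested genes fell and rose. Their median log2 change was -0.37, against -0.0064 over all tested genes. Called falls of at least 1.5-fold were seen in 22 of them (31.0%) and rises of that size in 4 (5.6%), against 15.3% and 17.1% of all tested genes. Without mLN replicate 1, 42 fell and 8 rose. No set test was run, and the falls of Tfrc and Mcm5 were already known from earlier results of these data.

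Among the MYC-induced genes, Utp20, Mybbp1a and Pes1, which act in ribosome assembly in the nucleolus, fell 2.89-fold, 1.88-fold and 1.70-fold. Odc1, the first enzyme of polyamine synthesis and a classic MYC target, fell from 57.0 ± 3.34 to 35.7 ± 1.201 CPM (SD, n = 3), a log2 change of -0.67 ± 0.06 (SE, edgeR adjusted p = 4.65e-06). The transferrin receptor Tfrc fell 7.36-fold and the replication helicase subunit Mcm5 5.05-fold. Against this direction, Ldha, which makes lactate, rose 1.89-fold and the cap-binding factor Eif4e 2.15-fold. The abundant nucleolar gene Ncl and Pa2g4 were not called (log2 changes of 0.05 and 0.07). Of the 71 tested genes, 49 were lowest in replicate 3 among the mLN libraries (69.0%), against 42.1% of all tested genes. In that same library 6 of the 7 tested members had their highest mLN level (all but Myc), against 39.4% of all tested genes. Without mLN replicate 3, 44 MYC-induced genes fell and 10 rose, and 4 members were lower and 1 higher, the same counts as with all libraries. What sets the replicate 3 library apart was not tested.

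Genes that MYC is described to repress were few and mixed. The 10 tested had a median log2 change of 0.23, and 4 of them rose, 2 fell and 4 passed no threshold, so that 60% were called against 67.4% of all tested genes. The cell cycle inhibitors Cdkn2c and Cdkn1a rose 3.10-fold and 1.48-fold and Ndrg2 2.29-fold, while Ndrg1 fell 1.78-fold and the inhibitor Cdkn1c 3.61-fold. Cdkn2b rose 1.40-fold (edgeR adjusted p = 0.0386), a call lost in 8 of 15 alternatives, among them DESeq2 (adjusted p = 0.0874) and leaving out uLN replicate 1 or 3 or mLN replicate 2 or 3 (adjusted p from 0.0755 to 0.128). Cdkn1b and Gadd45a were not called (log2 changes of -0.03 and 0.03). Of 15 tested proliferation genes 4 rose, 3 fell and 8 were not called, a called share of 46.7%.

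**Figure D4:**
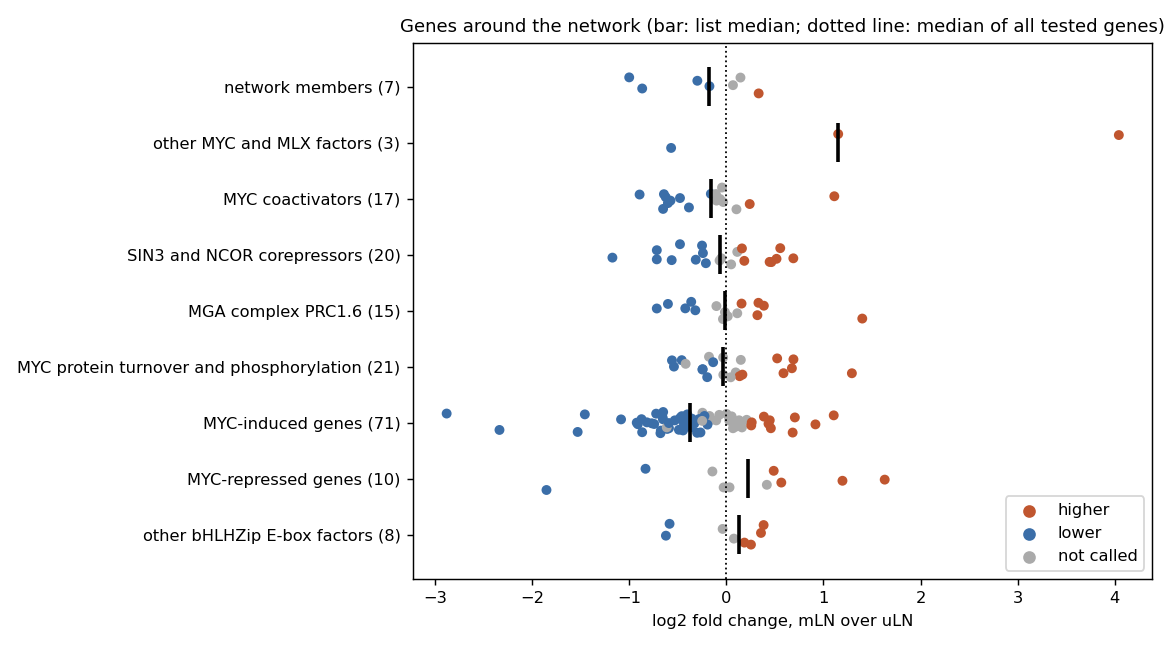
Log2 fold change of mLN over uLN (horizontal axis) for each tested gene of the lists around the network, with the number tested in brackets and colour for the call. The MYC-induced genes have a median of -0.37, Mycn stands alone at 4.04, and the cofactor lists spread to both sides.

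Of 17 cofactors through which MYC activates genes, 9 were lower, 2 higher and 6 not called, with a median log2 change of -0.16. Their called share of 64.7% lies near the 67.4% of all tested genes, of which 34.2% were lower and 33.2% higher. Without uLN replicate 1 a single one was higher. The acetyltransferases Crebbp, Ep300 and Kat5 fell 1.86-fold, 1.31-fold and 1.57-fold. Wdr5, which helps to place MYC on chromatin, fell 1.52-fold and the helicase Ruvbl2 1.54-fold. Trrap, the scaffold that MYC binds to bring in acetyltransferases, went against these and rose from 193 ± 3.45 to 418 ± 43.4 CPM (SD, n = 3), a log2 change of 1.11 ± 0.07 (SE, edgeR adjusted p = 2.66e-07). The abundant Hcfc1 was not called (log2 change of -0.10).

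The next list of 20 tested genes held corepressors that the antagonists recruit and the MYC partner Zbtb17. In it 7 were higher, 9 lower (Zbtb17 among them) and 4 not called, with a median log2 change of -0.06. Among all tested genes 33.2% were higher and 34.2% lower. The deacetylase Hdac1 fell 1.64-fold, and the SIN3 complex genes Brms1, Arid4a and Sin3b fell 2.26-fold, 1.48-fold and 1.39-fold. The SIN3 complex genes Suds3 and Rbbp7 rose 1.47-fold and 1.38-fold. Sap130 and Ing1 were not called (log2 changes of 0.05 and -0.05). For the polycomb complex that holds MGA, 5 of 15 were higher, 5 lower and 5 not called (median log2 change of -0.01), a called share of 66.7% that does not stand apart from the 67.4% of all tested genes, and Hdac1 and Wdr5 are also in the lists above. Without uLN replicate 3, 3 were higher. Its subunit Pcgf6 rose 2.64-fold from 4.43 ± 0.979 CPM (SD, n = 3), and Yaf2 rose 1.31-fold. L3mbtl2 and Tfdp1 fell by 0.36 and 0.32 on the log2 scale, while Ehmt2 and Cbx3 were not called (log2 changes of 0.01 and -0.01).

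Of 21 tested genes that act on MYC protein, 7 were higher, 7 lower and 7 not called (median log2 change of -0.03), shares near the 33.2% higher and 34.2% lower of all tested genes. The kinases Pim2 and Pim1, which stabilise MYC, rose 2.45-fold and 1.504-fold, and the deubiquitinase Usp28 rose 1.62-fold. Bin1, a MYC-binding tumour suppressor, fell 1.45-fold, the phosphatase inhibitor Set 1.47-fold and the ubiquitin ligase subunit Btrc 1.38-fold. Gsk3b, which marks MYC for breakdown, and Ppp2r5a were not called (log2 changes of 0.04 and -0.03). MYC protein itself was not measured.

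Of 8 tested E-box factors of the same fold outside the network, 4 were higher, 2 lower and 2 not called, a called share of 75% beside 67.4% of all tested genes. Mitf, which is required for mast cell development, fell from 229 ± 3.60 to 153 ± 8.65 CPM (SD, n = 3), a log2 change of -0.58 ± 0.05 (SE, edgeR adjusted p = 2.96e-06). Usf2 fell 1.54-fold, whereas Tfe3, Usf1, Srebf1 and Tfeb rose 1.31-fold, 1.19-fold, 1.14-fold and 1.28-fold. The call of Tfeb was lost without each library but mLN replicate 3 (adjusted p from 0.0546 to 0.118). Srebf2 and Tfap4 were not called (log2 changes of -0.04 and 0.08).

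Among 1172 tested genes with CACGTG in a RefSeq promoter window, 37.5% were lower and 33.8% higher in mLN. Among 9008 without it, 34.0% were lower and 33.4% higher, and the median log2 changes were -0.025 and -0.0071. These shares describe the letters of the windows and not binding.

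The 5 genes most like Myc over the 6 libraries, by Pearson r of log2 CPM among 9686 genes compared, were Dhx37, Ndst2, Arhgap1, Rab11b and Pirb, with r from 0.9996 to 0.99995. They fell 2.24-fold, 2.58-fold, 2.58-fold, 2.35-fold and 2.49-fold. With 2 groups that stand this far apart, an r over 0.95 was reached by 2490 of the genes compared, so the list describes the order of 6 points and nothing more.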

How the data were processed

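The authors deposited estimated counts (expected counts) per gene, 1 column per library. TopHat, cutadapt and FastQC, and the build GRCm38, are named per the submitters' processing notes. The sources used here do not give versions, the counting tool or its use of strand, so reads of overlapping genes may be shared. Of 17891 rows, 1 names no gene and was left out. Counts were rounded and tested with edgeR 4.0.16 in R 4.3.3 (quasi-likelihood test, TMM, default expression filter, 12706 genes kept and 5184 removed, no covariate). The SE of a log2 change is its size over the square root of F. Exon lengths are unions over GENCODE M21 basic transcripts of GRCm38, in place of the RefSeq lengths first planned. Gene positions and promoters are from RefSeq GRCm38.p6.

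The members and the 18 gene lists (253 of 255 entries found) were chosen with earlier results of these data known. All members are named. From each list up to 6 called genes in order of adjusted p are named (8 for MYC-induced genes), with up to 2 of the most abundant that were not called, plus the 5 genes most like Myc with a mean of at least 5 CPM (prior count 2, predicted gene models and pseudogenes left out) and 3 mast cell markers. One gene that this rule names is not reported here. Alternatives were other scalings, filters, DESeq2 1.42.0, limma 3.58.1 (voom), a replicate block, a set coefficient of variation and leaving out each library.

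The edgeR script was tested on simulated data, with 50 genes changed at each of 4 folds. It recovered 50% of changes of 1.25-fold, 88% of 1.5-fold, 98% of 2-fold and 100% of 4-fold. Of its 185 calls, 17 were false. Those calls were among 12556 genes, whereas 8566 of 12706 genes were called in the real libraries. Max and Mga fell 1.23-fold and 1.13-fold and Mxd1 rose 1.26-fold, and the fall of Mga is below the smallest fold tried. How often changes of these sizes are missed in the real libraries was not tested. Replicate pairs differed by more than counting error (mean chi-square per gene of 2.06 or more, where counting error gives 1), so each library was kept. mLN replicate 3 stood apart from mLN replicates 1 and 2 (median chi-square of 2.58 and 2.48, against 0.736 between those). Nothing in the labels says that replicates are separate animals, so the spread behind each p-value is that of these libraries and may be technical.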

Additional observations from a re-analysis of the deposited data

How the results depend on the processing

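Of the fits run, Myc and Mxd4 kept their fall and their call in all 15 alternatives, with log2 changes from -1.04 to -0.95 and from -0.91 to -0.83. Max and Mxd1 kept theirs in 14 of 15, and the exception for both was a biological coefficient of variation set to 0.2 (adjusted p = 0.359 and 0.298). With that setting 2145 genes were higher and 1913 lower, 0 members were higher and 2 lower, and 4 MYC-induced genes were higher and 21 lower. Leaving out each library gave 1 to 2 higher members and 3 to 4 lower. The ratio of Myc to the 5 antagonists in mLN over uLN then ran from 0.506 to 0.586, and was 0.560 per kilobase. The ratio of Myc to Max ran from 0.584 to 0.674. With Mycn added to Myc, an alternative chosen after seeing the data, the first ratio reversed to 1.48. No scaling moved the median of all tested genes by more than 0.027 on the log2 scale.

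Same-numbered replicates did not deviate together (r of 0.025, -0.155 and -0.013), so the numbers were not taken as pairs. With the replicate block 4122 genes were higher and 4263 lower, and the members stayed at 1 higher and 4 lower. With the coefficient of variation set to 0.2, 22 named genes lost their call, Max and Mxd1 among them. In the other settings run, Mga, Cdkn2b and Tfeb were the named genes that lost theirs. Without mLN replicate 3, Hcfc1, Cdkn1b and Srebf2 were called lower (adjusted p = 0.00509, 0.0204 and 0.0118). Hcfc1 was also called with no filter (adjusted p = 0.0248) and with limma voom (adjusted p = 0.0457). Depth limits Mxd3, Mycl and Mlxipl, and the size of the Mycn rise.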
